A study of Mus musculus with 10 samples.

Results

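The genes described here are the axon guidance ligand and receptor families: the semaphorins (Sema), plexins (Plxn), Eph receptors (Eph), ephrins (Efn), Slits, Robo receptors and netrins (Ntn). They were chosen by symbol alone, as the autosomal protein-coding genes that carry one of these family names in the mouse RefSeq annotation GRCm38.p6, the assembly also called mm10. That gave 59 genes of 20661 autosomal protein-coding genes: 20 semaphorins, 7 plexins, 14 Eph receptors, 7 ephrins, 3 Slits, 4 Robos and 4 netrins. Of these, 34 encode ligands and 25 encode receptors. The X-linked Efnb1, Plxna3 and Plxnb3 were left out by the choice of autosomes. Efnb1 had 14 listed sites in serum-2i Tdg cells, 10 in serum Tdg cells, 3 in serum-2i wt cells and 0 in serum wt cells, and the other two had at most 1 in any group.

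The study mapped 5-carboxylcytosine (5caC) at single CG sites in mouse embryonic stem cells. This base is the last product of the stepwise oxidation of 5-methylcytosine by the TET enzymes, and thymine DNA glycosylase, the product of Tdg, cuts it out of DNA. The groups were serum-2i Tdg, serum Tdg, serum-2i wt and serum wt, each with 2 technical replicates, and all cells were grown without feeders in serum with LIF. The serum-2i medium also held 3 µM CHIR99021, which blocks the kinase GSK3, and 1 µM PD0325901, which blocks MEK. The label Tdg gives a gene name without the kind of alteration, and no label says how many clones were used. DNA of serum-grown cells lacking the Tet genes served as the study's negative control and is not analysed here. As only DNA was measured, the cell type could not be checked against expressed markers.

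Axon guidance proteins steer growing nerve fibres and also act in blood vessels, immune cells and epithelia. Semaphorins bind plexins, ephrins bind Eph receptor tyrosine kinases on touching cells, Slits are secreted repellents bound by Robo receptors, and netrins are laminin-like cues that attract or repel. Genes of this kind serve differentiated tissues, and many of them spread over very long introns.

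Each value was the mean coverage of a listed CG site in a group. Serum-2i Tdg cells had 689303 listed sites, serum Tdg cells 374488, serum-2i wt cells 110753 and serum wt cells 8685, with median coverages of 13.5, 14.5, 7.5 and 4.5 in the same order. Sites were listed from a coverage of 6 in either Tdg group, 4 for serum-2i wt and 3 for serum wt, so a site that is missing has an unknown value. The table held 1 value per group, so the spread between replicates is unknown and no test was made. Ratios compare a gene's share of all listed coverage on a log2 scale, with a 95% interval for counting error only. Amplified reads are not independent molecules and neighbouring sites can share reads, so these intervals can be too narrow. A gene was called higher or lower at a difference of at least 2-fold whose interval excluded 0, and all other genes are given as between.

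The families held 3061 listed sites in serum-2i Tdg cells, 1928 in serum Tdg cells, 498 in serum-2i wt cells and 52 in serum wt cells. All 59 genes had a site in serum-2i Tdg cells, 58 in serum Tdg cells, 52 in serum-2i wt cells and 27 in serum wt cells. Of all autosomal protein-coding genes, 76.8%, 68.1%, 58.1% and 16.1% had a site in these groups in the same order. The family genes were longer, with a median span of 40.5 kb against 17.5 kb. Per kb they held 0.286, 0.180, 0.0466 and 0.00486 sites, below the 0.393, 0.226, 0.0686 and 0.00521 of all these genes. The family sites made up 0.444%, 0.515%, 0.450% and 0.599% of all listed sites in that order of groups. Tdg cells thus had 6.15 times the sites of wt cells in serum-2i, where all listed sites gave 6.22, and 37.1 times in serum, where all listed sites gave 43.1. In Tdg cells, serum-2i had 1.59 times the sites of serum, below the 1.84 of all listed sites. In wt cells the same ratio was 9.58, against 12.8 for all listed sites. These site ratios depend on the listing minimum of each group.

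Among the ligand families, the semaphorins had 773 sites in serum-2i Tdg cells, 546 in serum Tdg cells, 135 in serum-2i wt cells and 15 in serum wt cells. The ephrins had 193, 180, 22 and 7 in that order, the Slits 363, 161, 64 and 2, and the netrins 361, 177, 65 and 4. Among the receptors, the plexins had 257, 207, 64 and 7, and the Eph receptors 841, 604, 118 and 17. The Robo genes had 273, 53, 30 and 0. Long genes carried some of these sums. Of the ephrin sites, Efna5 alone held 92 in serum-2i Tdg and 25 in serum Tdg cells, and Robo1 and Robo2 held most of the Robo excess, while Robo3 had 7 in serum-2i Tdg and 24 in serum Tdg cells and Robo4 had 12 in each.

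The most sites lay in Ephb2, an Eph receptor with a kinase domain, which had 353 in serum-2i Tdg cells, 235 in serum Tdg cells, 46 in serum-2i wt cells and 5 in serum wt cells. Ntn1, which encodes the secreted netrin-1, had 229, 87, 50 and 1 in the same order, and the repellent gene Slit3 had 213, 61, 37 and 0. Robo1, a Slit receptor gene, had 178, 12, 20 and 0. These are long genes, with spans of 188.8 kb for Ephb2, 177.5 kb for Ntn1, 587.1 kb for Slit3 and 1020 kb for Robo1. Slit1 had 138 sites in serum-2i Tdg cells and 98 in serum Tdg cells, Sema4d 131 and 62, Sema5b 124 and 61, and Ephb1 112 and 52. At the other end, Sema3c had 1 site in each Tdg group, and Sema3d had 5 in serum-2i Tdg cells and was not listed in serum Tdg cells. Neither reached the summed coverage, averaging at least 20 over the 4 groups, that a gene needed to enter a ratio, which left 57 genes.

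Per length, short genes held the most sites. Epha2, a receptor tyrosine kinase gene of 28.2 kb, had 3.55 sites per kb in serum-2i Tdg cells. In serum Tdg cells the plexin gene Plxnb2 had 3.48 sites per kb, Sema3b 3.46, Efnb3 3.26, Sema3f 3.24 and Efna2 3.04. Ntn5 reached 2.75 in serum-2i Tdg cells and Efna3 2.43 in serum Tdg cells. Of the Ntn5 sites, 92.9% also lay in the span of another gene, as did 40.7% of the Efna3 sites, so these cannot be given to either gene alone.

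**Figure D1:**
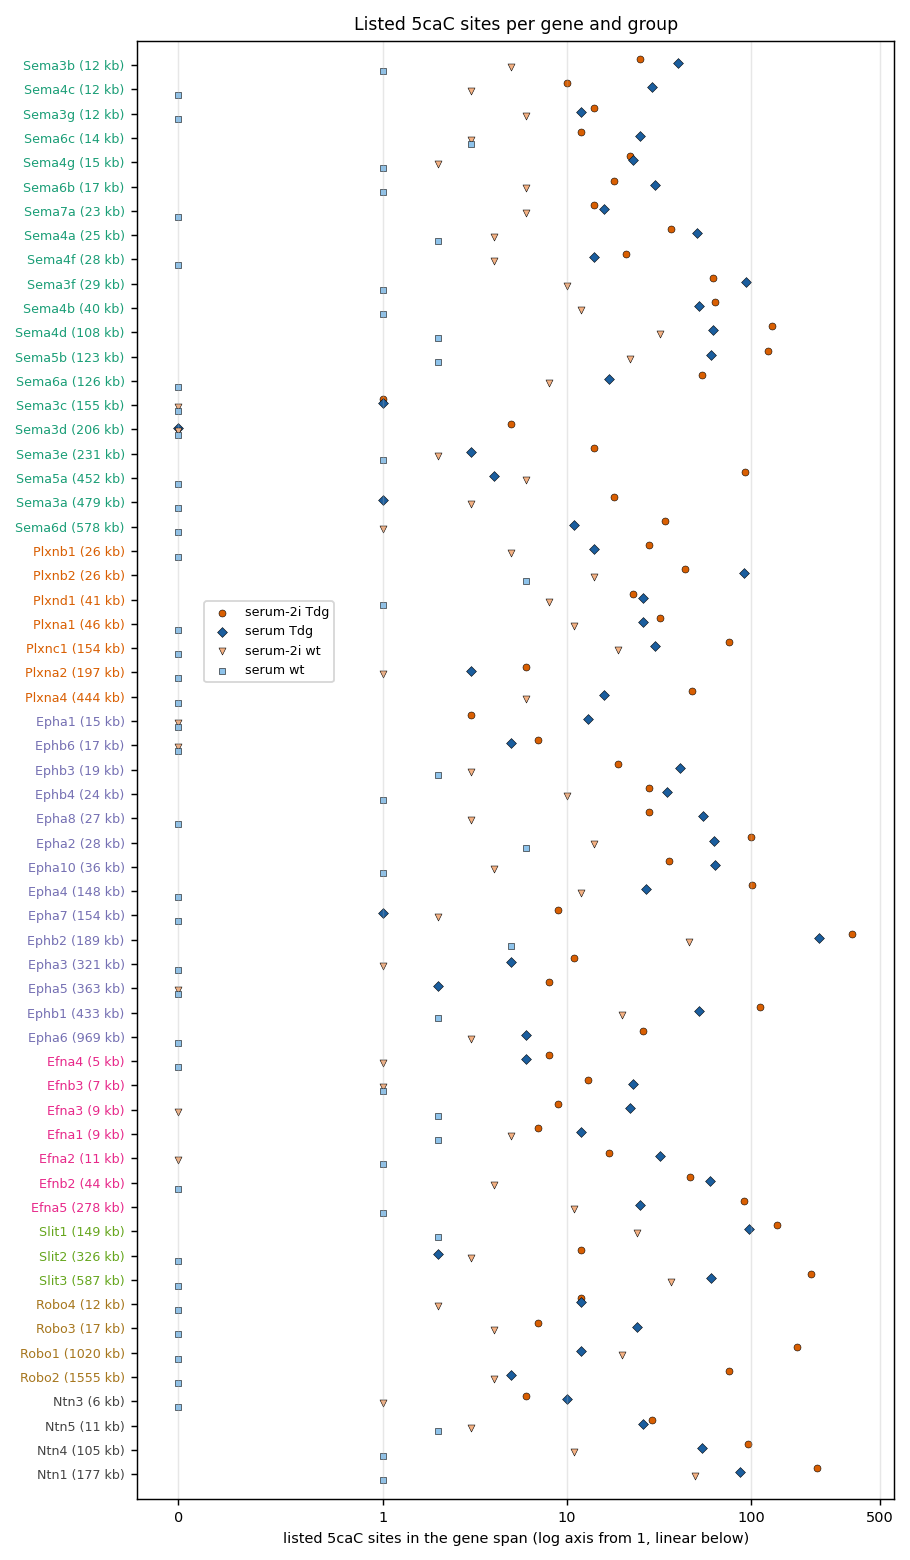
Listed 5caC sites in each of the 59 genes (horizontal axis, logarithmic from 1 and linear below), 1 row per gene ordered by family and then by span, with circles for serum-2i Tdg, diamonds for serum Tdg, triangles for serum-2i wt and squares for serum wt. Ephb2 has the most sites, with 353 in serum-2i Tdg and 235 in serum Tdg cells, and within most families serum Tdg lies to the right of serum-2i Tdg for short genes and to the left of it for long ones.

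Sites close to annotated gene starts were read from promoter sequences, which RefSeq gave for 51 of the 59 genes in 67 windows of 300 bases, from 250 before to 50 after a start. These windows held 1301 CGs. In serum-2i Tdg cells 14 of them were listed (1.08%, exact 95% binomial interval 0.590 to 1.80). Serum Tdg cells had 35 listed (2.69%, 1.88 to 3.72). The same shares over all autosomal protein-coding genes were 1.18% and 2.47%, so by this share the families stood close to the background in both media. A listed CG was present in 8 windows (11.9%) in serum-2i Tdg cells and in 18 windows (26.9%) in serum Tdg cells, where 10.7% and 19.2% of the windows of all genes held one. No CG of the family windows was listed in either wt group, where all genes had 0.112% of CGs listed for serum-2i wt and 0.0405% for serum wt.

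Plxnb2, a plexin gene on chromosome 15 (span 89155546 to 89182018), had the window with a listing in serum Tdg cells and none in serum-2i Tdg cells that is shown here. The stretch is chr15:89173952-89174165 on the minus strand of GRCm38.p6, from RefSeq, with only bases before the annotated start, lower case throughout except for listed CGs, which are in capitals.
Plxnb2, serum-2i Tdg: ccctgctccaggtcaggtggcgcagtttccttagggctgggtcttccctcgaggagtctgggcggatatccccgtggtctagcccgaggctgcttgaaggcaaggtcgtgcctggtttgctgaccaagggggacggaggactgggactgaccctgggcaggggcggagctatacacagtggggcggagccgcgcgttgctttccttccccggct
Plxnb2, serum Tdg: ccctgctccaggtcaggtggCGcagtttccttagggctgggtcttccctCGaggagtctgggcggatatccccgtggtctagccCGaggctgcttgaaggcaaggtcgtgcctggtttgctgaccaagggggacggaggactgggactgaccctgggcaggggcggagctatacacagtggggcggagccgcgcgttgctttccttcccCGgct
It holds 13 CGs, with 0 listed for serum-2i Tdg cells and 4 for serum Tdg cells. From 5′ to 3′ the 4 had coverages of 13.5, 26.5, 23 and 33.

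Sema4a, a membrane-bound semaphorin gene on chromosome 3, shows a window where both media had listings but in unequal number. The stretch is chr3:88458902-88458989 on the minus strand of GRCm38.p6, printed in the same way.
Sema4a, serum-2i Tdg: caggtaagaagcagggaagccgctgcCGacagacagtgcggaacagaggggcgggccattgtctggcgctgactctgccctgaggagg
Sema4a, serum Tdg: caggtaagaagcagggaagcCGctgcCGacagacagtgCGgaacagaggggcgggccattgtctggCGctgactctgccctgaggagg
Of its 5 CGs, serum-2i Tdg cells had 1 listed, with a coverage of 20.5, and serum Tdg cells had 4, with coverages of 28, 71.5, 45 and 15. The CG listed in serum-2i Tdg cells was the one with 71.5 in serum Tdg cells. Another Sema4a window, chr3:88455712-88456011, went the other way, with 3 CGs listed in serum-2i Tdg cells and 2 in serum Tdg cells.

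Sema6b, a transmembrane semaphorin gene on chromosome 17, is shown because the media were level there. The stretch is chr17:56133853-56134046 on the minus strand, again with listed CGs in capitals.
Sema6b, serum-2i Tdg: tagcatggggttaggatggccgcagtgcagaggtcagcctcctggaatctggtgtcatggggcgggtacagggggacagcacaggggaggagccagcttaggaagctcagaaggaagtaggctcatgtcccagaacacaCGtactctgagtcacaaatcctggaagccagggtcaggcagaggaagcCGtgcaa
Sema6b, serum Tdg: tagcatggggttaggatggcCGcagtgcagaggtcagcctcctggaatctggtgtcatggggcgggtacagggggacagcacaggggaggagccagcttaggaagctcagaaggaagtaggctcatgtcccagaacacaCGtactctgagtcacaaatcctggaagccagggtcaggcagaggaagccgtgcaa
Each medium had 2 of the 4 CGs listed, with coverages of 36.5 and 10 in serum-2i Tdg cells and of 9 and 38.5 in serum Tdg cells. One CG was common to both, with 36.5 in serum-2i Tdg cells and 38.5 in serum Tdg cells. A CG in small letters was not listed, which does not show that it lacked 5caC.

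Over wider distances, 46 of 2460 sites in the 51 genes lay within 1 kb of an annotated start in serum-2i Tdg cells (1.87%, 1.37 to 2.49), against 124 of 1527 in serum Tdg cells (8.12%, 6.80 to 9.61). Over all genes these shares were 3.34% and 11.1%. Within 20 kb of a start lay 31.6% of the family sites in serum-2i Tdg cells and 61.6% in serum Tdg cells, where all genes gave 44.1% and 61.4%. In wt cells, 7 of 383 sites (1.83%, 0.738 to 3.73) lay within 1 kb in serum-2i and 3 of 46 (6.52%, 1.37 to 17.9) in serum, where all genes gave 2.30% and 12.2%. In Tdg cells, sites of serum-2i thus lay farther from starts than those of serum, in the families as in all genes. The intervals of all genes in wt cells within 1 kb were 2.17 to 2.43 in serum-2i and 11.2 to 13.3 in serum. The binomial intervals treat sites as independent, while neighbouring sites can share reads, so they can be too narrow. They hold no spread between replicates, so their overlap is not a test between groups. At 20 kb the family shares were 35.5% in serum-2i wt cells (30.7 to 40.5) and 67.4% in serum wt cells (52.0 to 80.5). All genes gave 43.4% and 64.6% at that distance.

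The genes with most sites within 1 kb of a start in serum Tdg cells differed among themselves. Plxnb2 had 3 such sites in serum-2i Tdg cells and 20 in serum Tdg cells. Sema4a had 5 and 9 in that order, Sema6b 3 and 9, Ntn5 4 and 8, Ephb1 0 and 7, and Sema4g 2 and 6. Sema4d, whose protein binds plexin-B1, went the other way with 16 in serum-2i Tdg cells and 10 in serum Tdg cells.

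**Figure D2:**
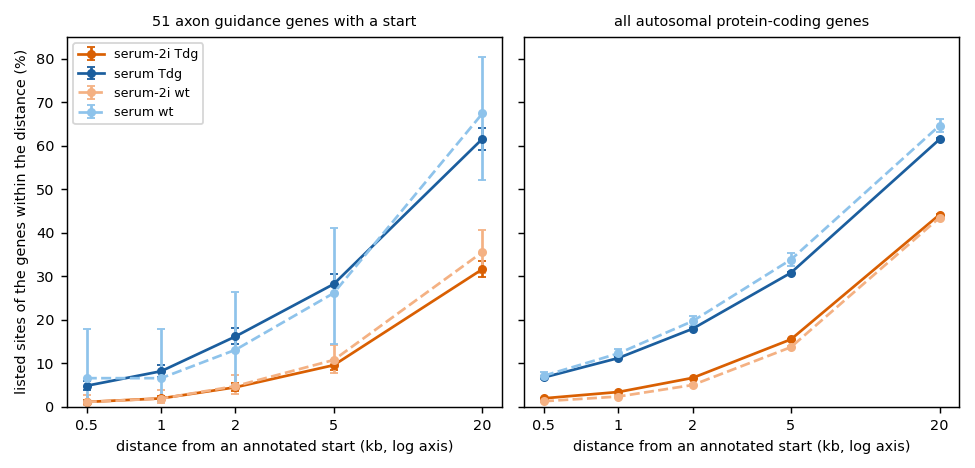
Percent of listed sites within a distance of an annotated start (horizontal axis in kb, logarithmic) for the 51 family genes with a start (left) and for all autosomal protein-coding genes (right), with lines for the 4 groups and bars for exact 95% binomial intervals. The serum Tdg line lies above the serum-2i Tdg line at each distance, at 8.12% and 1.87% within 1 kb in the families.

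The comparison of media in Tdg cells asks how 5caC in Tdg cells is spread over the genes in each culture state. Of the 57 genes, 14 were higher in serum-2i Tdg cells, 23 were lower and 20 lay between, where 28.2% of 12398 autosomal protein-coding genes were higher and 25.1% were lower. The coverage filter can be met through 1 high group. Of the higher genes, Sema3a, Epha5, Epha7, Plxna2, Sema3e and Slit2 met it only through serum-2i Tdg cells. The lower gene Epha1 met it only through serum Tdg cells. A filter of 50 gave 11 higher and 23 lower of 53 genes, where all genes gave 26.7% higher and 25.0% lower. That filter can also be met through 1 high group, as by Sema3a, with 256.5 in serum-2i Tdg and 6.5 in serum Tdg cells. The median log2 ratio was -0.36 in the families and 0.08 over all genes. Ligands gave 6 higher, 14 lower and 12 between, and receptors 8 higher, 9 lower and 8 between. Counting each listed site once in place of its coverage gave 5 higher and 20 lower, so that 20% of the called genes were higher, compared with 37.8% by coverage. Over all genes, counting sites gave 10.9% higher and 16.5% lower.

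The direction followed gene length. All 14 higher genes spanned at least 147.9 kb, the length of Epha4, and all 23 lower genes spanned at most 44.0 kb, the length of Efnb2. These counts and those by length keep the genes that met the filter only through the group where they were higher. Between 10 and 30 kb, 16 of 22 family genes were lower and 0 higher, where 30.8% of all genes of that length were lower and 22.1% higher. Under 10 kb, 4 of 5 were lower and 0 higher, where all genes gave 56.5% lower and 10.5% higher. Between 30 and 100 kb, 3 of 5 were lower and 0 higher, where all genes gave 13.4% lower and 32.1% higher. Over 100 kb, 14 of 25 were higher and 0 lower, close to the 51.2% higher and 3.16% lower of all genes. Spearman's rho between span and ratio was 0.852 over the 57 genes and 0.453 over the 12398, a description only, because genes of 1 group share a library.

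The number of sites split in the same way. It was not scaled, so it depends on the depth and listing minimum of each group. Among 32 family genes under 100 kb, 22 had fewer sites in serum-2i Tdg cells than in serum Tdg cells and 9 had more, where 26.4% of all such genes had fewer and 68.0% had more. Of 27 family genes over 100 kb, 26 had more and 0 had fewer, where 95.1% of all such genes had more and 3.88% fewer. The long family genes were therefore near the background and the short ones were not, by counts alone.

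**Figure D3:**
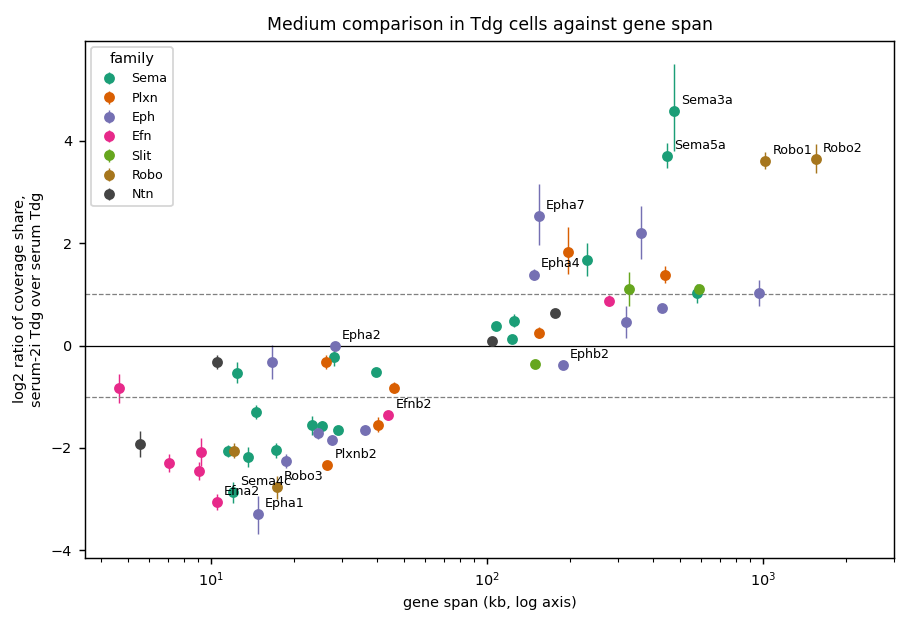
Log2 ratio of the coverage share in serum-2i Tdg over serum Tdg cells (vertical axis) against gene span in kb (logarithmic axis) for 57 genes, coloured by family, with bars for 95% counting intervals, a line at 0 and dashed lines at the 2-fold limits. All genes below the lower limit are at most 44.0 kb long and all above the upper limit are at least 147.9 kb long.

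**Figure D4:**
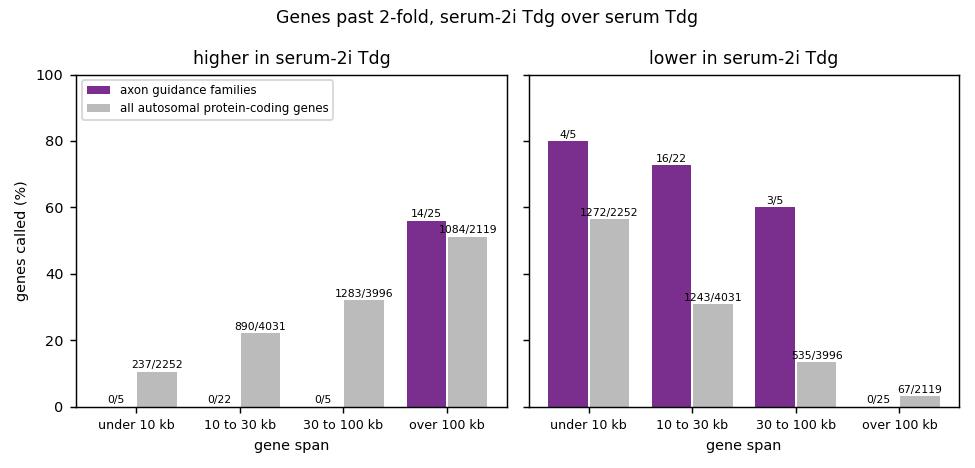
Percent of genes called higher (left) and lower (right) in serum-2i Tdg over serum Tdg cells by span class, for the axon guidance families beside all autosomal protein-coding genes, with counts above the bars. The families exceed all genes among lower genes of 10 to 30 kb, with 16 of 22, and are close to them among higher genes over 100 kb, with 14 of 25.

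Among the ligands, the ephrins, which are membrane-anchored, gave 5 lower genes and 2 between, none higher, and their median ratio was -2.07. Over all genes 28.2% were higher and 25.1% lower. Efna1, Efna3, Efna4 and Efnb3 spanned under 10 kb, where 56.5% of all genes were lower. The summed coverage of Efna2 was 212.5 in serum-2i Tdg cells and 1075.5 in serum Tdg cells, from 17 and 32 sites, a log2 ratio of -3.06 (-3.21 to -2.91). The highest ephrin, the long gene Efna5, had 1445.5 in serum-2i Tdg cells and 478 in serum Tdg cells, a ratio of 0.87 (0.77 to 0.98). Efna1, Efna3 and Efna4 lie side by side on chromosome 3, with gaps of 32.9 and 10.5 kb, so they are not separate regions.

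The semaphorins had 4 higher, 8 lower and 6 between, where 28.2% of all genes were higher and 25.1% lower. Sema3a, a secreted repellent of axons that acts through neuropilin and plexin-A receptors, had 18 sites in serum-2i Tdg cells and 1 in serum Tdg cells. Its summed coverage was 256.5 in serum-2i Tdg cells and 6.5 in serum Tdg cells, a log2 ratio of 4.58 (3.79 to 5.5) that rests on that 1 site. Sema5a, a transmembrane semaphorin gene of 451.5 kb, had 93 sites in serum-2i Tdg cells and 4 in serum Tdg cells and a ratio of 3.71 (3.47 to 3.96). At the low end, Sema4c, a ligand of plexin-B2, had 10 sites in serum-2i Tdg cells and 29 in serum Tdg cells and a ratio of -2.87 (-3.08 to -2.66).

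Of the Slits, Slit3 had a ratio of 1.11 (1.04 to 1.18) and Slit2 of 1.10 (0.77 to 1.43), while Slit1, the shortest of them, lay between at -0.36. The Slit2 ratio rests on 12 sites in serum-2i Tdg and 2 in serum Tdg cells, against 213 and 61 for Slit3. Slit2 met the coverage filter only through serum-2i Tdg cells. The netrins had 1 lower gene, Ntn3, at -1.92 (-2.18 to -1.67), with 6 sites in serum-2i Tdg cells and 10 in serum Tdg cells. Ntn1 was the highest netrin at 0.64 (0.59 to 0.70). The ligand families thus differed in the mix of long and short genes as well as in ratio.

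Among the receptors, the Robo genes split into both directions. Robo1 had a summed coverage of 3187.5 in serum-2i Tdg cells and 158.5 in serum Tdg cells, a log2 ratio of 3.61 (3.45 to 3.78). Robo2, of 1555 kb, had 1118.5 in serum-2i Tdg cells and 54 in serum Tdg cells, a ratio of 3.65 (3.37 to 3.94). Robo3, which regulates midline crossing of commissural axons, had 106.5 in serum-2i Tdg cells and 442 in serum Tdg cells, a ratio of -2.78 (-3.0 to -2.56). Robo4, the endothelial Robo, lies 2.02 kb from Robo3 on chromosome 9 and was lower at -2.06 (-2.21 to -1.91). It had 12 sites in each medium, with a summed coverage of 263 in serum-2i Tdg and 663.5 in serum Tdg cells. Of the 663.5, single sites held 211 and 134, so the call leans on a few high sites.

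**Figure D5:**
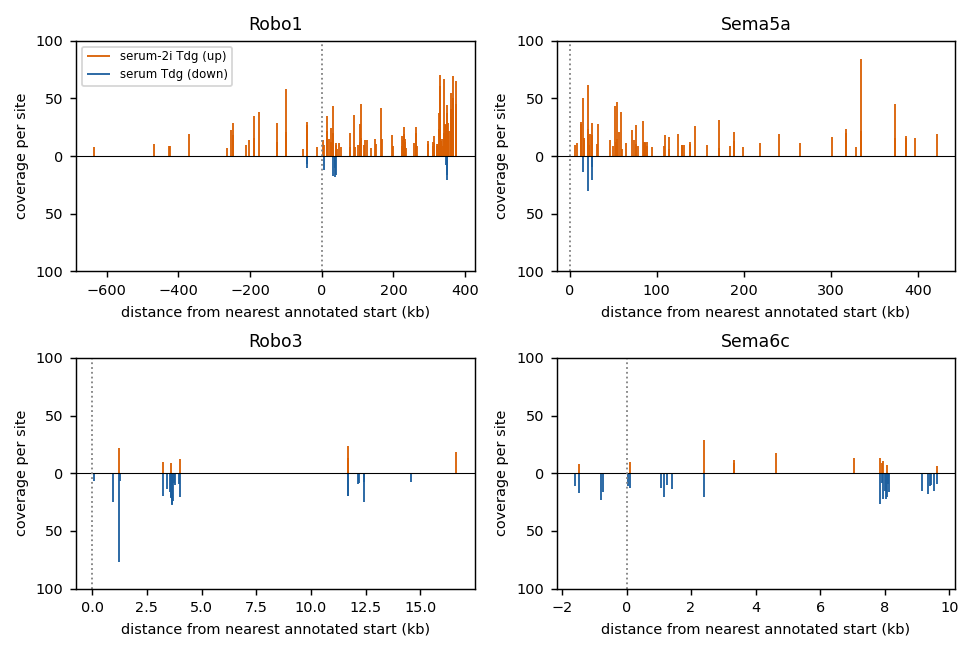
Coverage of each listed site in Robo1, Sema5a, Robo3 and Sema6c against the distance from the nearest annotated start in kb, with serum-2i Tdg upward and serum Tdg downward on a common scale. In Robo1, 178 sites point up and 12 down, and in Robo3, 7 point up and 24 down.

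The Eph receptors had 4 higher, 5 lower and 5 between, where 28.2% of all genes were higher and 25.1% lower. Epha7 had 9 sites in serum-2i Tdg cells and 1 in serum Tdg cells, with a ratio of 2.53 (1.97 to 3.15). Epha1 had 3 sites in serum-2i Tdg cells and 13 in serum Tdg cells, with the lowest ratio of the families at -3.30 (-3.69 to -2.94), and 64.3% of its sites also lay in another gene. Epha7 met the coverage filter only through serum-2i Tdg cells, and Epha1 only through serum Tdg cells. Epha2, with 100 sites in serum-2i Tdg cells and 63 in serum Tdg cells, was level at -0.02 (-0.09 to 0.05). Among the plexins, Plxna2 was highest at 1.84 (1.39 to 2.31), from 6 sites in serum-2i Tdg cells and 3 in serum Tdg cells. Plxna2 met the filter only through serum-2i Tdg cells. Plxnb2 was lowest at -2.34 (-2.43 to -2.25), from 44 sites in serum-2i Tdg cells and 92 in serum Tdg cells.

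Other genes of the same pathways, 56 co-receptors, further receptors and effectors, were read beside the families. Of 51 with sites in both groups, 15 were higher in serum-2i Tdg cells, 12 lower and 24 between, with a median of 0.34. These shares of 29.4% higher and 23.5% lower were close to the 28.2% and 25.1% of all genes. Netrin receptor and repulsive guidance genes gave 3 higher and 5 lower of 10. Dcc, a netrin receptor gene, had 18 sites in serum-2i Tdg cells and 3 in serum Tdg cells and a ratio of 1.95, while Unc5b, also a netrin receptor gene, had 165 and 235 and a ratio of -1.68. The semaphorin co-receptor genes also differed, with Nrp1 at 2.75 and Nrp2 at -1.08. For comparison, the medians were 0.65 for cadherins, -2.05 for Wnt genes and -1.55 for Notch pathway genes.

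The comparison of Tdg with wt cells in serum-2i asks which genes carry a larger share of 5caC in cells labelled Tdg. Of 52 genes with sites in both, 6 were higher in serum-2i Tdg cells, 9 lower and 37 between, where 11.0% of 10858 genes were higher and 21.8% lower. The median was -0.04 in the families and -0.23 over all genes. Efna2, Efna3, Epha1, Epha5 and Ephb6 were listed in serum-2i Tdg but not in serum-2i wt cells, as were 2102 of all genes, beside the 10858 listed in both. By sites in place of coverage, 2 genes were higher and 1 lower, where all genes gave 0.746% higher and 4.04% lower. That makes 66.7% of only 3 called genes higher, compared with 40% by coverage. This comparison shares the serum-2i Tdg library with the comparison of media.

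The higher genes were Sema6d, Efnb3, Sema5a, Epha3, Robo2 and Efnb2. Sema6d, a transmembrane semaphorin gene, had 34 sites in serum-2i Tdg cells and 1 in serum-2i wt cells and a ratio of 2.55 (1.74 to 3.51). Efnb3 had 13 sites in serum-2i Tdg cells and 1 in serum-2i wt cells, with a ratio of 1.56 (0.62 to 2.70), and Epha3 had 11 and 1, with 1.35 (0.35 to 2.57). Each of these rests on a single wt site. Epha3 also met the coverage filter only through serum-2i Tdg cells, the group where it was higher. Robo2 had 76 sites in serum-2i Tdg cells and 4 in serum-2i wt cells and a ratio of 1.33 (0.97 to 1.72).

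The lowest ratio was that of Efna1, an ephrin-A gene, with 7 sites in serum-2i Tdg cells and 5 in serum-2i wt cells. Its summed coverage was 80.5 in serum-2i Tdg cells and 46 in serum-2i wt cells, a ratio of -2.99 (-3.37 to -2.60). Sema7a, the GPI-anchored semaphorin gene, was at -1.97 (-2.29 to -1.64), Robo3 at -1.73 (-2.18 to -1.26), Plxnd1 at -1.57 (-1.85 to -1.28) and Ephb4 at -1.47 (-1.71 to -1.23). A lower share does not mean fewer sites, since Efna1, Sema7a, Robo3, Plxnd1 and Ephb4 each had more listed sites in serum-2i Tdg cells. Of the families with no called gene, the Slits ranged from -0.85 for Slit2 to -0.06 for Slit1, and the netrins from -0.73 for Ntn3 to 0.71 for Ntn4. Plxna4 was the highest plexin at 0.40 (0.10 to 0.71).

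Serum wt cells had only 52 sites in 27 of the genes. Plxnb2 and Epha2 had 6 each, Ephb2 had 5 and Sema6c 3. Efna1, Efna3, Ephb1, Ephb3, Ntn5, Sema4a, Sema4d, Sema5b and Slit1 had 2 each. Efna2, Efna5, Efnb3, Epha10, Ephb4, Ntn1, Ntn4, Plxnd1, Sema3b, Sema3e, Sema3f, Sema4b, Sema4g and Sema6b had 1 each. No Robo gene was listed there. Of the 27 genes, 2 had a higher share in serum Tdg than in serum wt cells, Sema3f at 2.09 and Ntn1 at 1.07, and 9 had a lower one, where 3.78% and 55.5% of 3172 genes did. Scaling to the median ratio of genes turned this to 11 higher and 3 lower, with 78.6% of called genes higher, compared with 18.2% without it, and it gave 26.2% higher and 23.1% lower over all genes. For serum-2i wt over serum wt cells, 1 of 25 was higher and 13 lower, with 5.32% and 58.6% of 2915 genes as background, and the same scaling gave 11 and 5, with 68.8% higher compared with 7.14%, and over all genes 29.9% higher and 21.7% lower. No direction is drawn from either.

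The families had 4254 distinct positions listed in at least 1 group. Of these, 1916 were in serum-2i Tdg cells alone, 903 in serum Tdg cells alone and 251 in serum-2i wt cells alone. No such counts are given over all listed positions, so they are not read as a trait of the families. The Tdg groups shared 999, which is 32.6% of the serum-2i Tdg sites and 51.8% of the serum Tdg sites, where all positions gave 28.7% and 52.8%. Of the 498 serum-2i wt sites, 231 (46.4%) were also listed in serum-2i Tdg cells, where all positions gave 49.1%. Of the 52 serum wt sites, 37 (71.2%) were also listed in serum Tdg cells, where all positions gave 54.5%.

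In all, 3 positions of the families were listed in all 4 groups, a count that also has no background over all positions. The one in Efna1, at position 89271992 of chromosome 3, had coverages of 21 and 45 in the Tdg groups of serum-2i and serum, and of 11 and 10 in the wt groups of the same media. The one in Sema6c, at 95166731 of chromosome 3, had 28.5, 20.5, 12.5 and 5 in that order. The one in Ntn5, at 45691200 of chromosome 7, had 16, 12.5, 12.5 and 4. Serum wt cells were lowest at each, and the Tdg groups changed places between them.

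Some listed sites stood in tight runs, taken here as 5 or more sites with neighbours no more than 100 bases apart. Runs were not counted over all genes, so the counts below are not read as a trait of the families. Serum-2i Tdg cells had 64 such runs in 24 genes, the longest with 11 sites, in Ephb2. Serum Tdg cells had 75 in 31 genes, the longest with 14 sites, in Efna2 and in Ephb3. Sites of 1 run can share reads, so they are not separate measurements. The highest single coverages were 189 in Slit3, 182 in Ephb1 and 159.5 in Epha2 for serum-2i Tdg cells, and 211 in Robo4, 167.5 in Sema6b and 166.5 in Plxnb2 for serum Tdg cells. In serum-2i wt cells the highest was 27, in Ephb4, and in serum wt cells 15, in Sema6c.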

How the data were processed

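Coverage of 5caC at CG sites was measured in 10 samples of 5 groups, with 2 technical replicates each per the design text, and 4 groups have values. The authors deposited a table with 1 coverage value, a signal, per listed CG site and group; multiples of 0.5 were read as the mean of the replicates. Per the submitters' processing notes, positions are on mm10. Aligner and caller: not given in the sources used here. All listed positions in RefSeq promoter windows fell on the C of a CG when counted from 0, so 1 was added.

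Members, lists and the size rule were chosen with earlier results of these data known. Sites and coverage were summed over GRCm38.p6 RefSeq gene spans. The ratio of shares had an exact conditional Clopper-Pearson 95% interval on coverage times 2. Depth in reads is unknown. Planned count models were not run, as the table has 1 value per group. On simulated data for serum-2i Tdg over serum Tdg with 12398 genes, 100% of 4-fold rises and 99.0% of falls were recovered and 0.115% of unchanged genes were called. The simulated counts were independent draws with counting error only, as the interval assumes. They held no amplified or shared reads, listing minima or spread between replicates. These shares therefore check the calculation and are not an error rate for the calls.

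Named genes were the highest and lowest ratio of each family in the first 2 comparisons, the 8 with most sites, most sites per kb and most sites near a start, and those listed in 1 Tdg group only or in serum wt. Epha4, Robo1, Robo4, Sema5a, Sema3c, the remaining called genes against wt, the pathway genes, single-site maxima, runs and the printed windows were chosen after their values were seen. Alternatives were other scalings, minima, caps, spans, filters and folds. Python 3.11.15, numpy 2.4.6, pandas 2.3.3, scipy 1.17.1 and matplotlib 3.10.9 were used.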

Additional observations from a re-analysis of the deposited data

Results flagged for a closer look

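Sema3e, a secreted semaphorin gene that signals to plexin-D1, had shares of the listed coverage that differed in opposite directions between media in the 2 genotypes. Its log2 ratio of serum-2i over serum was 1.67 in Tdg cells, from 14 sites in serum-2i Tdg and 3 in serum Tdg cells, and -2.70 in wt cells, from 2 sites in serum-2i and 1 in serum. The wt value is lower as a share, while the summed coverage itself was higher, at 9.5 for serum-2i wt and 3 for serum wt, so no direction is drawn from it. The difference between genotypes was not tested.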

How the results depend on the processing

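No paired analysis was possible because the table gives 1 mean value per group; for the same reason no replicate was left out. Counts are given as higher and lower genes. Counting sites in place of coverage gave 5 higher for serum-2i Tdg over serum Tdg, 2 and 1 for serum-2i Tdg over serum-2i wt, 0 and 2 for serum Tdg over serum wt, and 0 and 3 for serum-2i wt over serum wt. Of all genes, 4.38% and 7.51% were lower by sites in the last 2 comparisons, in the same order. Median-ratio scaling gave 11 and 3 for serum Tdg over serum wt and 11 and 5 for serum-2i wt over serum wt. A common minimum of 6 gave 0 higher for serum Tdg over serum wt, 0 and 7 for serum-2i wt over serum wt, and 12 serum wt sites. Of all genes, 88.1% and 90.1% were lower in these comparisons at that minimum. A minimum of 10 gave 0 and 3 in both of these comparisons, with 114 serum-2i wt and 3 serum wt sites. All genes gave 99.0% and 98.7% lower there, in the same order. Positions within 1 kb of span ends gave 2 higher for serum-2i Tdg over serum Tdg, 1 for serum-2i Tdg over serum-2i wt, 0 for serum Tdg over serum wt, and 0 and 6 for serum-2i wt over serum wt; Efnb3 reversed to -0.18 for serum-2i Tdg over serum-2i wt, and the cause was not tested. Spans widened by 2 kb gave 14 lower for serum Tdg over serum wt, where 54.7% of all genes were lower. A 1.5-fold rule gave 14 and 17 for serum-2i Tdg over serum-2i wt, where all genes gave 18.3% higher and 34.3% lower. Within 500 bases of a start lay 1.06% of serum-2i Tdg and 4.78% of serum Tdg sites, and within 2000 bases 4.43% and 16.1%, with 4.70% for serum-2i wt. The lower count for serum-2i Tdg over serum Tdg ranged between 20 and 25 over these alternatives, and the higher count between 2 and 17. The genes compared and the background changed with the setting. Within 1 kb of span ends only 29 family genes were compared for serum-2i Tdg over serum Tdg, where all genes gave 10.5% higher and 58.6% lower. For serum-2i Tdg over serum-2i wt, all genes gave 7.22% higher and 40.7% lower at this setting. The lower shares of all genes were 85.5% for serum Tdg over serum wt and 96.8% for serum-2i wt over serum wt.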
